A study of Mus musculus with 6 samples.

Results

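The JAK kinases and STAT factors carry the signals of cytokine receptors from the cell surface to the nucleus. The group described here comprised the 9 genes Jak1, Jak2, Jak3, Tyk2, Stat2, Stat3, Stat4, Stat5a and Stat5b, taken by symbol from a table of 11162 genes. The rule sets no threshold on expression. All 9 were listed and passed the filter on low values, a mean of at least 1 RPKM (reads per kilobase of gene, scaled to library size) over the libraries. RNA had been sequenced from naive CD8 T cells of mouse spleen in 3 libraries with high (GFP-hi) and 3 with low (GFP-lo) fluorescence of the Nur77-GFP reporter. All mice carried Tg(Nr4a1-EGFP)GY139Gsat, a transgene in which the regulatory region of Nr4a1 drives green fluorescent protein, so that brightness follows recent signalling through the T-cell receptor. The sort labels of both populations gave CD8+, CD44lo, CD62Lhi and Qa2hi cells together with OT-I, a transgenic T-cell receptor for an ovalbumin peptide, and the populations differed in the reporter gate alone. Ages, treatments and the number of mice were not given in the labels, and nothing there says that libraries came from separate animals. The p-values below therefore measure the spread between these samples, which may be technical.

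As background, cytokine receptors have no kinase of their own and hold JAK kinases on their intracellular tails. On binding of the cytokine the JAKs phosphorylate each other and the receptor, STAT factors dock there, are phosphorylated, pair up and enter the nucleus. Naive T cells depend on this route for survival through interleukin 7, whose receptor uses JAK1, JAK3 and STAT5, while STAT4 serves interleukin 12, STAT3 serves interleukins 6 and 21, and STAT2 serves type I interferon within the complex ISGF3. Much of the regulation of JAK and STAT proteins is by phosphorylation, which RNA levels do not show.

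The libraries held 26170000 to 35940000 reads, estimated from the spacing of the lowest RPKM values, which is set by single reads. Among the members the fewest reads stood behind Stat5a in GFP-lo replicate 3, 305 per kilobase of transcript with a counting error of 5.73% for 1 kilobase, and each Jak1 value rested on at least 5372 reads per kilobase. The labelled cell type was met by its markers: 5 of 6 CD8 T cell markers were listed, with a summed level of 1428 to 1531 RPKM in GFP-hi and of 1398 to 1454 RPKM in GFP-lo libraries. Of the markers of other cells, 2 of 6 for B cells summed to 12.5 to 14.2 RPKM in GFP-hi and 10.9 to 11.3 RPKM in GFP-lo. For myeloid cells 2 of 8 summed to 18.8 to 24.6 and 18.8 to 21.0 RPKM, for NK cells 1 of 5 had 5.49 to 8.14 and 5.86 to 7.68 RPKM, and for erythroid cells 1 of 6 had 0.047 to 1.94 and 0.393 to 1.48 RPKM. For CD4 T cells 2 of 5 summed to 17.2 to 26.2 and 36.3 to 47.8 RPKM, but they went opposite ways, Cd40lg with a log2 fold change of -1.13 (adjusted p = 0.011, limma) and Izumo1r with 1.17 (adjusted p = 0.00087). The remaining markers were not analysed here, so which of them lie at 0 is not stated, and the part of other cells in the results was not tested. Dissociation and heat-shock genes stood higher in replicate 2 of each population, with a mean log2(RPKM + 1) of 7.25 and 7.36 against 6.23 to 6.59 in the other 4 libraries.

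None of the 9 JAK and STAT genes passed the test between the populations. With limma on log2(RPKM + 1) over 9351 genes and Benjamini-Hochberg adjustment, 0 of 9 were called higher and 0 lower at an adjusted p under 0.05, against 3.95% of all genes tested (2.46% higher and 1.49% lower). At an unadjusted p under 0.05 there was 1 member, Stat5a, against 20.2% of all genes. The 3 values of one population all lay above those of the other for 1 of 9 members, again Stat5a, against 26.9% of all genes. Log2 fold changes, GFP-hi over GFP-lo, ran from -0.065 to 0.17 with a median of 0.0060, beside a median of 0.018 over all genes tested; 5 were positive and 4 negative. The 95% intervals of the members together spanned -0.25 to 0.32. In bulk RNA, fewer expressing cells and less RNA per cell cannot be told apart.

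**Figure D1:**
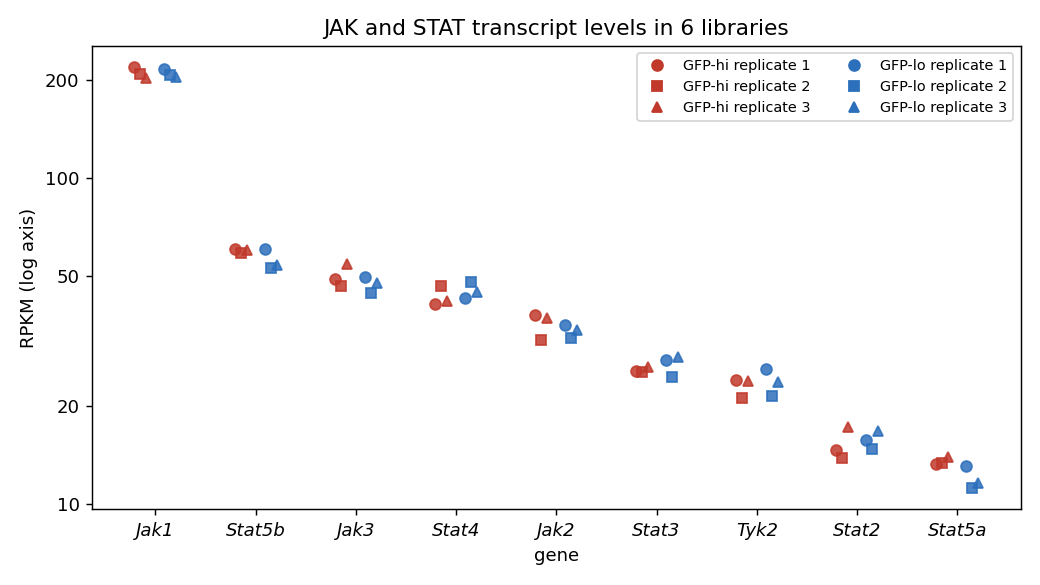
RPKM (log axis) of the 9 JAK and STAT genes, in order of their mean level, with 1 point per library, GFP-hi in red and GFP-lo in blue and the replicate by symbol. Jak1 lies between 204 and 220.0 RPKM, Stat5a between 11.2 and 13.9 RPKM, and red and blue points overlap for each gene except Stat5a.

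By level in RPKM, which is scaled for gene length, Jak1 stood far above the rest. The annotation behind those lengths is not given, and biases particular to a gene were not tested. Its mean over the 6 libraries, 210.9 RPKM, was 3.63 times that of Stat5b (58.0 RPKM) and was exceeded by few genes, since 99.3% of genes tested had a lower mean. Jak3 (48.8 RPKM), Stat4 (44.3), Jak2 (34.9), Stat3 (26.3), Tyk2 (23.4), Stat2 (15.5) and Stat5a (12.8) followed. The 6 values of neighbours overlapped for Stat5b and Jak3, Jak3 and Stat4, Stat3 and Tyk2, and Stat2 and Stat5a. Within each library, however, Stat5b was above Jak3, Stat3 above Tyk2 and Stat2 above Stat5a. Jak3 was above Stat4 except in GFP-lo replicate 2, with 44.4 against 48.0 RPKM. The 6 values did not overlap between Jak1 and Stat5b, Stat4 and Jak2, Jak2 and Stat3, or Tyk2 and Stat2. No test was made of this order.

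Among the kinases, Jak1 is used by the widest range of receptors, those of interleukins 2, 6, 7, 10 and 15 and of the interferons among them. It lies at chr4:101151974-101265282 (GRCm38, minus strand; Entrez 16451). Jak1 read 220.0, 209.9 and 204 RPKM in the GFP-hi and 218, 209 and 205 RPKM in the GFP-lo libraries. Replicate 1 was the highest and replicate 3 the lowest in each population, and the groups overlapped over nearly their whole range. Group means were 211 ± 8.01 and 210.4 ± 6.35 RPKM (SD, n = 3 each), a difference of 0.439%, with a log2 fold change of 0.0060, a 95% interval from -0.12 to 0.13 and an adjusted p of 0.97 (limma). The sign of so small a change turned with trimmed mean of M values scaling (-0.022).

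Jak3 (chr8:71676383-71690577, plus strand; Entrez 16453) binds only the common gamma chain, Il2rg, of the receptors for interleukins 2, 4, 7, 9, 15 and 21. It read 49.1, 46.9 and 54.6 RPKM in the GFP-hi and 49.9, 44.4 and 47.7 RPKM in the GFP-lo libraries. GFP-hi replicate 3 was the highest and GFP-lo replicate 2 the lowest, with the other 4 between them in no order by population. The log2 fold change was 0.082 (95% interval -0.085 to 0.25, limma adjusted p = 0.59).

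Jak2 (chr19:29251803-29313095, plus strand; Entrez 16452) pairs with Tyk2 at the interleukin 12 receptor and with Jak1 at the interferon-gamma receptor. Its RPKM was 38.1, 31.9 and 37.1 in GFP-hi and 35.5, 32.4 and 34.3 in GFP-lo libraries, lowest in replicate 2 of each population. The log2 fold change was 0.063 (95% interval -0.11 to 0.24, limma adjusted p = 0.71). Tyk2 (chr9:21104068-21131393, minus strand; Entrez 54721), which also serves the type I interferon receptor, read 24.0, 21.2 and 23.9 RPKM in the GFP-hi and 26.0, 21.5 and 23.6 RPKM in the GFP-lo libraries. It too was lowest in both libraries numbered 2, the libraries with more heat-shock RNA, and highest in GFP-lo replicate 1. The log2 fold change of Tyk2 was -0.041 (95% interval -0.23 to 0.15, limma adjusted p = 0.83). With the heat-shock list as a covariate it was -0.085 for Tyk2 (adjusted p = 0.34, limma) and 0.022 for Jak2 (adjusted p = 0.79), and without both libraries numbered 2 it was -0.050 and 0.11.

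Of the STAT factors, Stat5a and Stat5b came nearest to a difference. They encode near-identical factors that act for interleukins 2, 7 and 15. Stat5a (Entrez 20850) read 13.3, 13.4 and 13.9 RPKM in the GFP-hi and 13.1, 11.2 and 11.6 RPKM in the GFP-lo libraries. All 3 GFP-hi values lay above the GFP-lo values, but GFP-lo replicate 1 was only just below the lowest of them. Group means were 13.5 ± 0.358 and 11.98 ± 1.01 RPKM (SD, n = 3 each), 13.0% higher in GFP-hi, with a log2 fold change of 0.17 (standard error 0.068, 95% interval 0.0097 to 0.32). The unadjusted p was 0.040 and the adjusted p 0.22 (limma), so the difference did not pass. Of all genes tested, 77.1% had a smaller fold change in absolute value than Stat5a.

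Stat5b (Entrez 20851) read 60.7, 59.2 and 60.4 RPKM in the GFP-hi and 60.6, 53.0 and 54.2 RPKM in the GFP-lo libraries. As for Stat5a, the 2 lowest values were those of GFP-lo replicates 2 and 3, while GFP-lo replicate 1 lay among the GFP-hi values. Group means were 60.1 ± 0.774 and 56.0 ± 4.08 RPKM (SD, n = 3 each), with a log2 fold change of 0.10 (95% interval -0.039 to 0.25, limma adjusted p = 0.41). Without GFP-lo replicate 1 the log2 fold change was 0.23 for Stat5a (adjusted p = 0.10) and 0.16 for Stat5b (adjusted p = 0.15). Without GFP-lo replicate 2 it was 0.12 (adjusted p = 0.49) and 0.067 (adjusted p = 0.71). Only with array quality weights, which count some libraries less than others, did a member pass: Stat5a at 0.23 (adjusted p = 0.021, limma), in a fit that called 1282 genes instead of 369. The log2 fold change of Stat5a was positive in each of the 18 alternatives, with an adjusted p from 0.021 to 0.49 (limma). A constant sign was not particular to it: Stat5b, Jak2 and Jak3 were also positive in each, and Stat3 and Stat4 negative. The alternatives reuse the same libraries.

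The pair are neighbours on the genome. Stat5b (chr11:100780731-100859004, minus strand) and Stat5a (chr11:100859351-100885169, plus strand) are transcribed away from each other with 346 bases between the outermost annotated starts (RefSeq genes, GRCm38.p6), and the Stat3 gene, on the minus strand, lies 1636 bases beyond the far end of Stat5a. The windows of 250 bases upstream of the starts in the RefSeq promoter table were compared among the 9 members, 12 windows in all. The 2 Stat5b windows lie inside the gene, at chr11:100850582-100850831 and chr11:100822571-100822820. The outermost Stat5b start has no window, and the 346 bases between Stat5b and Stat5a lie in none of the windows. The longest run of identical bases in 126 comparisons, both strands counted, was one of 16 bases between a downstream start of Stat5b and one of Stat5a, with a run of 13 bases just before it, and the next longest in any other comparison was 12 bases. The following stretches of 30 bases, 5′ to 3′ and on the strand of each gene, show where the near-copies are alike; capitals mark the bases in those runs, of which the shorter begins 3 bases before the stretch.
Stat5b, chr11:100822578-100822607, minus strand: GCTGACCTTTtagaAGGAAATCGCTGCTCT
Stat5a, chr11:100860438-100860467, plus strand: GCTGACCTTTgaggAGGAAATCGCTGCTCT
The Stat5a stretch overlaps an annotated exon and untranslated region of GENCODE M21, and the Stat5b stretch overlaps no annotated exon. The transcripts are alike as well: 608 of 3839 windows of 50 bases in the longest coding transcript of Stat5a, 15.8%, were also found in Stat5b transcripts. No other pair of members shared such a window in 72 comparisons. Reads from those stretches could be assigned to either gene, and how the authors' counting treated them is not given in the sources used here, so the separate levels of Stat5a and Stat5b are uncertain to that extent.

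**Figure D2:**
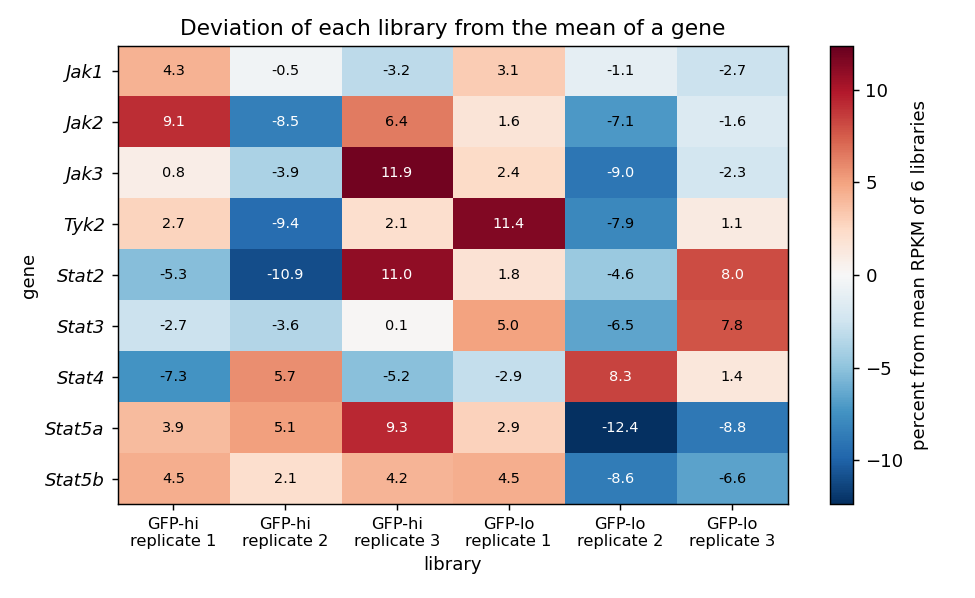
Percent by which each library (columns) lay above (red) or below (blue) the mean RPKM of a gene over the 6 libraries (rows). Stat5a and Stat5b are low only in GFP-lo replicates 2 and 3, Stat4 is high in both libraries numbered 2, and Stat2 is high in both numbered 3.

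Stat4 (chr1:51987106-52107189, plus strand; Entrez 20849), the factor of interleukin 12 signalling, read 41.1, 46.8 and 42.0 RPKM in the GFP-hi and 43.0, 48.0 and 45.0 RPKM in the GFP-lo libraries. It was highest in replicate 2 of each population, the libraries with more heat-shock RNA, and the groups overlapped. Group means were 43.3 ± 3.09 and 45.3 ± 2.51 RPKM (SD, n = 3 each), with a log2 fold change of -0.065 (95% interval -0.22 to 0.093, limma adjusted p = 0.66). The value was -0.080 without both libraries numbered 2 (adjusted p = 0.55, limma) and -0.029 with the heat-shock list as a covariate (adjusted p = 0.70).

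Stat3 (chr11:100886806-100939594, minus strand; Entrez 20848), which serves interleukins 6, 21 and 27, read 25.6, 25.3 and 26.3 RPKM in the GFP-hi and 27.6, 24.6 and 28.3 RPKM in the GFP-lo libraries. The GFP-hi values were close together and fell within the range of the GFP-lo values. The log2 fold change was -0.055 (95% interval -0.20 to 0.093, limma adjusted p = 0.69).

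Stat2 (chr10:128270498-128292853, plus strand; Entrez 20847), the STAT found only in interferon signalling, read 14.7, 13.8 and 17.2 RPKM in the GFP-hi and 15.8, 14.8 and 16.7 RPKM in the GFP-lo libraries. It was highest in replicate 3 and lowest in replicate 2 of each population. The log2 fold change was -0.051 (95% interval -0.25 to 0.15, limma adjusted p = 0.80), and its residual SD, 0.124 on the log2 scale, was the largest of the members and larger than that of 74.4% of genes tested. Irf9, the DNA-binding partner of STAT2 in ISGF3, averaged 23.6 ± 1.40 RPKM in the GFP-hi and 22.4 ± 1.03 RPKM in the GFP-lo libraries (SD, n = 3 each), with a log2 fold change of 0.071 (adjusted p = 0.59, limma).

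The promoter windows, which leave out the outermost Stat5b start and the bases between Stat5b and Stat5a, were searched for the binding motifs of the pathway itself on both strands. The motif TTCNNNGAA, to which STAT pairs bind, was in 0 of the 12 windows of the members and in 7.02% of 32851 windows of all genes. The motif GAAA, any 2 bases and GAAA again, the core bound by ISGF3, was in 2 of 12 and in 2.98% of all windows. These 2 windows, of Stat2 and of a downstream start of Stat4 inside the gene, are given in full with the match in capitals, because they place the interferon motif beside a STAT start.
Stat2, chr10:128270248-128270497, plus strand: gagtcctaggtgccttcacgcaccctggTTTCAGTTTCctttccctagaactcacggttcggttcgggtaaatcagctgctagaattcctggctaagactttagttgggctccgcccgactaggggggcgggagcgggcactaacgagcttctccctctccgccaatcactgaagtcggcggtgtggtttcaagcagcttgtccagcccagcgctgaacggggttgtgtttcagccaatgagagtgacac
Stat4, chr1:52007990-52008239, plus strand: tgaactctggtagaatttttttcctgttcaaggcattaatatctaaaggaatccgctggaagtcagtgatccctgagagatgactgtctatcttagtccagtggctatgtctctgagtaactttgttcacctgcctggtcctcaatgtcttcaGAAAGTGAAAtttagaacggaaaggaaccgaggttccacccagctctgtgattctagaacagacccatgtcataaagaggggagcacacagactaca
The match ended 212 bases before the start in Stat2, where it is read on the opposite strand, and 87 bases before it in Stat4. A match describes the letters only.

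**Figure D3:**
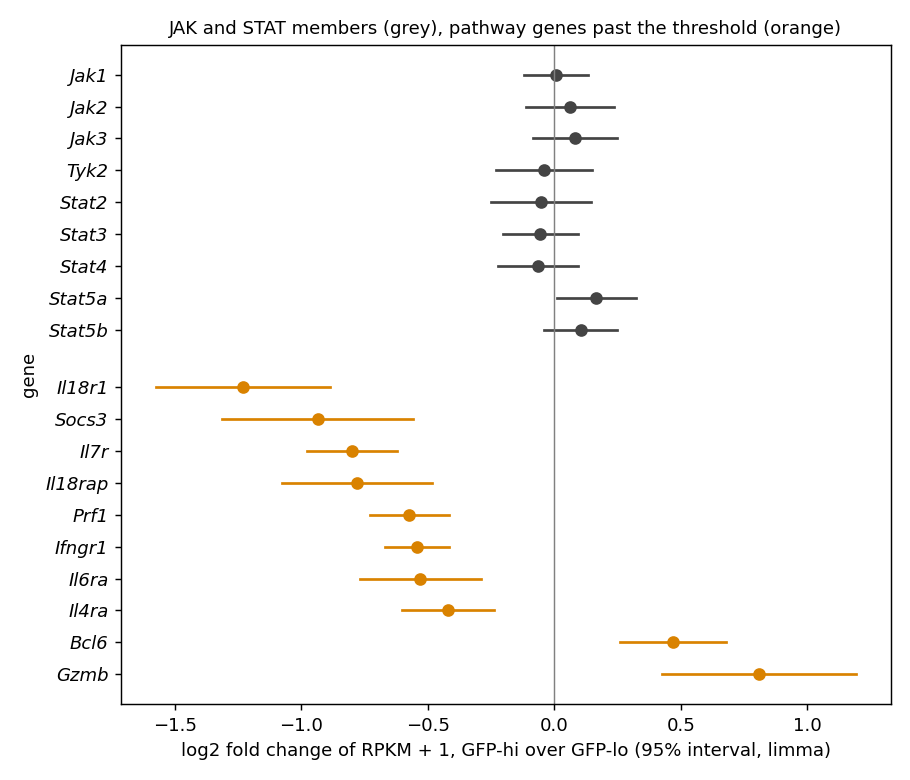
Log2 fold change of RPKM + 1, GFP-hi over GFP-lo, with its 95% interval from limma, for the 9 members (grey) and the 10 genes of the pathway lists with an adjusted p under 0.05 (orange). The members lie between -0.065 and 0.17, and the orange genes between -1.23 and 0.81.

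Members that work together could still shift against each other, so the log2 ratio of their RPKM was compared in 4 pairs by an exact two-sided permutation test, in which 3 against 3 libraries cannot go below a p of 0.1. Stat5a over Stat5b had log2 ratios of -2.19, -2.14 and -2.12 in GFP-hi and -2.21, -2.25 and -2.22 in GFP-lo libraries, a difference of 0.073. Jak2 over Tyk2, the pair at the interleukin 12 receptor, had 0.67, 0.59 and 0.64 in GFP-hi and 0.45, 0.59 and 0.54 in GFP-lo libraries, a difference of 0.11 that was 0.067 without GFP-lo replicate 1. For both pairs the populations did not overlap, by a narrow margin, and each reached the smallest possible p (exact permutation p = 0.1, adjusted p = 0.2 over the 4 ratios).
Jak1 over Jak3, the pair at common gamma chain receptors, differed by -0.077 (exact permutation p = 0.6) and Stat4 over Stat3 by -0.0094 (exact permutation p = 1), with overlapping populations. Stat4 over Stat3 was highest in both libraries numbered 2, at 0.89 and 0.97, against 0.64 to 0.68 in the other 4. Jak1 exceeded Jak3 by 3.74 to 4.70 times in each library, and Stat5a was at 0.211 to 0.231 times the level of Stat5b.

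**Figure D4:**
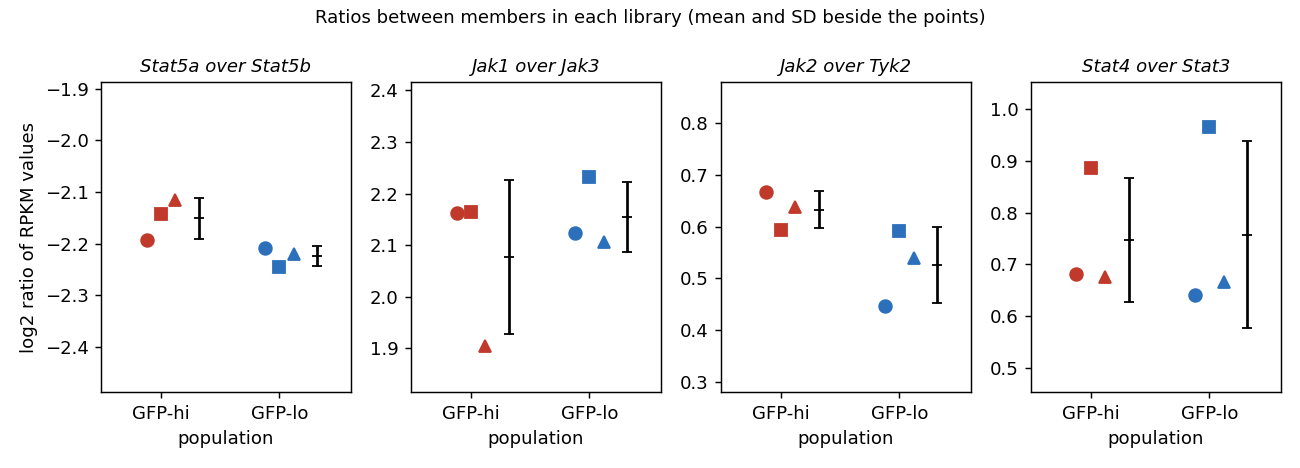
Log2 ratio of RPKM between members in each library, by population (circle, square and triangle for replicates 1, 2 and 3), with the mean and SD (n = 3) beside the points; each panel spans the same height on the log2 scale. The populations separate narrowly for Stat5a over Stat5b and for Jak2 over Tyk2, and they overlap for Jak1 over Jak3 and for Stat4 over Stat3.

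Around the members, 4 of 18 tested receptor chains were lower in GFP-hi and 0 higher, beside 1.49% and 2.46% of all genes. Lists by role held 83 tested genes that were not members, of which 2 were higher and 8 lower in GFP-hi (limma, adjusted p under 0.05), with a median log2 fold change of -0.033. These lists were chosen with earlier results of these data known, so the counts describe them and were not tested against the shares of all genes. Of 6 tested common gamma chain receptors 2 fell and none rose. Il7r, the specific chain of the interleukin 7 receptor, read 68.1, 66.2 and 57.7 RPKM in the GFP-hi and 119, 111 and 105 RPKM in the GFP-lo libraries, and its log2 fold change, -0.80, had a standard error of 0.077 (adjusted p = 0.0022, limma). Il4ra, the interleukin 4 receptor chain, fell by 0.42 on the log2 scale, with 40.9, 37.3 and 40.3 RPKM against 59.8, 50.1 and 50.2 RPKM (adjusted p = 0.028, limma). The shared chain Il2rg, to which Jak3 binds, averaged 302 ± 9.44 RPKM in the GFP-hi and 298 ± 12.1 RPKM in the GFP-lo libraries (SD, n = 3 each), with a log2 fold change of 0.018 (adjusted p = 0.90, limma). Il21r had a log2 fold change of -0.13 (adjusted p = 0.29), and Il2rb, the signalling chain for interleukins 2 and 15, which was chosen after its values were seen, had 0.26 (adjusted p = 0.13, limma), and passed only with array quality weights (0.32, adjusted p = 0.0097).

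Of 6 interferon and interleukin 10 family receptors Ifngr1 fell, the ligand-binding chain for interferon-gamma, with 48.5, 52.1 and 52.2 RPKM in GFP-hi and 73.4, 73.1 and 77.4 RPKM in GFP-lo libraries. The change was -0.54 on the log2 scale, at a standard error of 0.055 (adjusted p = 0.0024, limma), and the populations lay far apart relative to their spread. Of 4 receptors of the interleukin 6 family Il6ra fell by 0.53 on the log2 scale (adjusted p = 0.032, limma), while the shared chain Il6st had -0.027 (adjusted p = 0.92) and Il27ra 0.10 (adjusted p = 0.39). Neither of the 2 tested interleukin 12 receptor chains passed: Il12rb1 had a log2 fold change of -0.14 (adjusted p = 0.36, limma) and Il12rb2, the chain that docks STAT4, one of 0.18 (adjusted p = 0.30), at mean levels over all libraries of 2.47 and 1.82 RPKM. The most abundant type I interferon chain, Ifnar1, had a log2 fold change of 0.030 (adjusted p = 0.82, limma). Il7r and Ifngr1 passed in each of the 18 alternatives. Il4ra did not pass without any 1 of the GFP-hi libraries or of GFP-lo replicates 2 and 3, with an adjusted p up to 0.078, nor without both libraries numbered 2 (adjusted p = 0.11, limma), and Il6ra not without GFP-hi replicate 1 or any 1 GFP-lo library, with an adjusted p up to 0.10.

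Among 16 tested negative regulators only Socs3 passed, beside 3.95% of all genes tested. SOCS3, itself made in response to STAT3, binds receptors and JAKs and stops their signal. Socs3 read 27.3, 45.6 and 36.6 RPKM in the GFP-hi and 63.4, 76.9 and 68.2 RPKM in the GFP-lo libraries, which is -0.93 on the log2 scale at a standard error of 0.164 (adjusted p = 0.021, limma). Socs3 belongs to the dissociation and heat-shock genes too, of which 17 of 23 tested had a negative fold change, with a median of -0.24. With the mean level of that list as a covariate Socs3 was at -0.84 (adjusted p = 0.0075, limma). That mean includes Socs3 itself, so the covariate fit adjusts the gene partly by its own values. Without both libraries numbered 2 Socs3 was at -1.03 (adjusted p = 0.041, limma). Socs3 did not pass without GFP-hi replicate 3 or any 1 GFP-lo library, with an adjusted p up to 0.085. The window of Cish, another negative regulator that was searched, had 0 matches to the STAT motif, and 7.02% of the windows of all genes held one. The upstream window of Socs3 holds the motif, in capitals, 145 bases before the start.
Socs3, chr11:117969501-117969530, minus strand: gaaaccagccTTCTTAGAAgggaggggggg
The abundant phosphatases Ptpn6 (-0.035, adjusted p = 0.79) and Ptprc, the gene of CD45 (0.16, adjusted p = 0.22), had log2 fold changes that did not pass limma, although Ptprc passed with array quality weights (0.20, adjusted p = 0.028), and the STAT5-induced regulator Cish was below the filter, at 0.298 to 0.594 RPKM.

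Target genes of the factors, listed from general knowledge with earlier results of these data known, moved in both directions. Of all genes tested, 2.46% were called higher and 1.49% lower, and 20.2% had an unadjusted p under 0.05 (limma). The counts per list were not tested against these shares. Of 11 tested STAT5 targets Gzmb, the gene of granzyme B, rose (log2 fold change 0.81, limma adjusted p = 0.038) and Prf1, the gene of perforin, fell (-0.57, adjusted p = 0.0046), around a median of 0.048; the abundant survival genes Mcl1 (-0.065, adjusted p = 0.78) and Pim2 (0.052, adjusted p = 0.83) did not pass. Of 8 STAT3 targets Bcl6, a transcriptional repressor, rose from 1.51 ± 0.211 to 2.47 ± 0.274 RPKM (SD, n = 3 each, log2 fold change 0.47, limma adjusted p = 0.031), and Socs3 and Il6ra fell. The median of that list was -0.33, and 3 of its genes, Junb (-0.47, adjusted p = 0.080), Fos (-0.18, adjusted p = 0.62) and Socs3, are on the dissociation and heat-shock list as well. Junb passed with that list as a covariate (-0.39, adjusted p = 0.0093, limma), a fit that adjusts Junb partly by its own values. Junb also passed with array quality weights (-0.59, adjusted p = 0.0037, limma), without GFP-hi replicate 2 (-0.61, adjusted p = 0.017) and without both libraries numbered 2 (-0.54, adjusted p = 0.032). Of 8 STAT4 targets both chains of the interleukin 18 receptor fell, Il18r1 with a log2 fold change of -1.23 (adjusted p = 0.0048, limma) and Il18rap with -0.78 (adjusted p = 0.017). Both reached the filter of 1 RPKM only through GFP-lo. Il18r1 averaged 0.923 RPKM in the GFP-hi and 3.53 RPKM in the GFP-lo libraries, and Il18rap 0.958 and 2.37 RPKM. Gadd45g had a log2 fold change of 0.59 (adjusted p = 0.12, limma) and Gadd45b one of -0.17 (adjusted p = 0.79). Gadd45g passed with the heat-shock covariate (0.70, adjusted p = 0.013, limma) and with array quality weights (0.45, adjusted p = 0.039). Of 27 tested ISGF3 genes 0 were called by limma in either direction and 2 had an unadjusted p under 0.05; the median was -0.035, and Bst2 (-0.052, adjusted p = 0.89) and Ifit3 (-0.15, adjusted p = 0.81) were the most abundant. Without 1 library Gzmb lost its call unless that library was GFP-lo replicate 1 or 3 (adjusted p up to 0.12). Gzmb was low, at 3.26 to 3.82 RPKM in GFP-hi and 0.949 to 2.24 RPKM in GFP-lo libraries. It also lost its call with a pseudocount of 0.1 (adjusted p = 0.054, limma). Bcl6 lost it without GFP-hi replicate 1 or 3 or GFP-lo replicate 2 or 3 (up to 0.12), and Il18rap without GFP-hi replicate 1 or GFP-lo replicate 2 or 3 (up to 0.073). Without both libraries numbered 2, which carried more heat-shock RNA, these 3 genes, Il18r1 (adjusted p = 0.062, limma) and Prf1 (adjusted p = 0.050) did not pass.

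**Figure D5:**
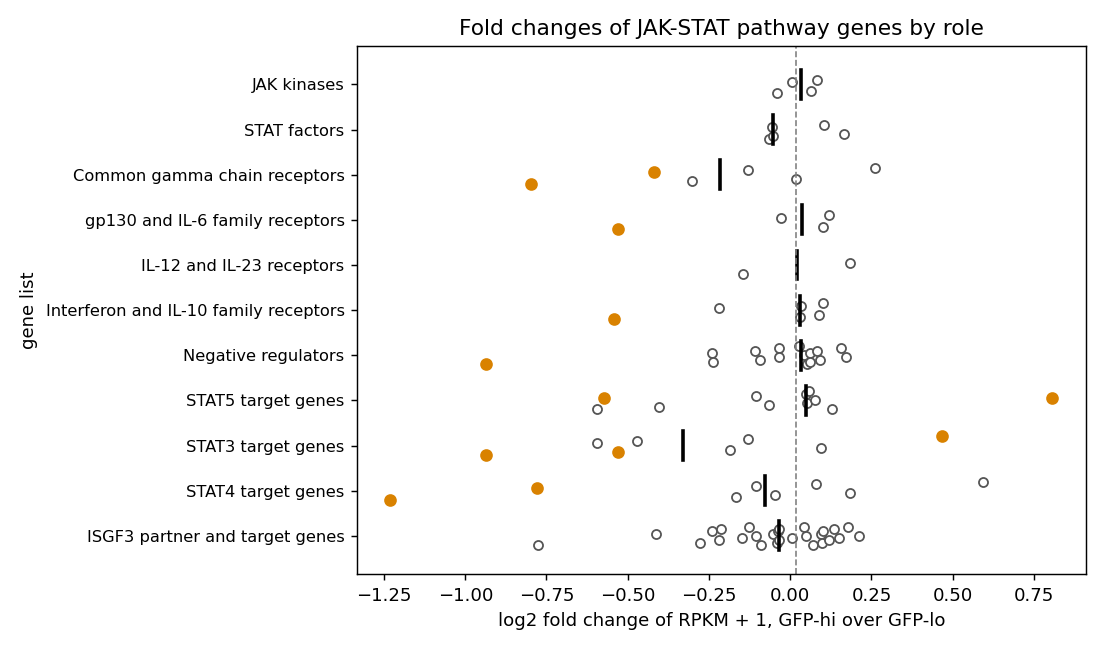
Log2 fold change, GFP-hi over GFP-lo, of each tested gene (points) of the kinases, the factors and 9 lists of their pathway. Orange points passed an adjusted p under 0.05, black bars are list medians and the dashed line is the median of all genes tested, 0.018; the points of the kinases and factors are all open, and the orange points are mostly receptors and targets to the left of 0.

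By likeness of pattern, the tested genes closest to Stat5a, the member with the smallest p, were Hdac3, a histone deacetylase (Pearson r = 0.988 over the 6 libraries), Psmd3, a proteasome subunit (0.987), and Uba1, the ubiquitin-activating enzyme (0.986). Beside Stat5a itself, 179 of the 9351 genes tested had an r of at least 0.9 with it. How many would do so by chance over 6 libraries was not tested, and all genes share the same depths and handling. Hdac3 read 17.9, 17.8 and 18.1 RPKM in the GFP-hi and 17.5, 15.7 and 16.4 RPKM in the GFP-lo libraries, with the same 2 libraries lowest, and a log2 fold change of 0.11 (adjusted p = 0.31, limma).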

How the data were processed

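The deposited table gives RPKM, 1 column per sample, per the file headers. STAR and mm10 are named in the submitters' processing notes; the read counter and annotation are not given in the sources used here. Per the labels' protocols, RNA of sorted cells was amplified with SMART-seq v4 and libraries were made with Nextera XT. Groups followed the reporter label; the labels give no replicate numbers, so those used here follow record order and were not used for pairing. Depth was recovered from RPKM times transcript length for 800 genes with a single GENCODE M21 transcript: at the depth found, 86.5% to 90.5% of low values came within 0.1 of whole numbers of reads (20% expected by chance).

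The 9351 genes whose mean RPKM reached 1 were tested (1811 left out) with limma 3.58.1 (R 4.3.3) on log2(RPKM + 1), which understates changes of low genes, with a mean-variance trend, two-sided, and Benjamini-Hochberg adjustment over all of them. The fit was tested on simulated data. The 18 alternatives changed pseudocount (0.1, 0.5), filter, scaling (median, quantile, trimmed mean of M values), variance model, covariate and samples. Members and lists were chosen with earlier results of these data known. Named genes are the members, list genes past the threshold, the 2 most abundant of each list, and the 3 most like the member with the smallest p. Positions, promoters and names come from RefSeq (GRCm38.p6, the build of mm10); all 9 members matched by Entrez ID. Figures used matplotlib 3.10.9.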

Additional observations from a re-analysis of the deposited data

How the results depend on the processing

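No paired analysis was possible because the labels give no replicate numbers or shared source; the numbers used follow record order, and whether same-numbered libraries belong together is not known. No member was called in 17 of 18 alternatives; with array quality weights 1 was, Stat5a at 0.23. Signs of members turned only for Jak1, Tyk2 and Stat2, whose main log2 fold changes were 0.0060, -0.041 and -0.051. Jak1 was -0.022 after scaling by trimmed mean of M values, -0.0070 with weights and from -0.023 to 0.031 without 1 library. Tyk2 was 0.049 and Stat2 0.070 with weights; without 1 library Tyk2 ran from -0.11 to 0.026 and Stat2 from -0.14 to 0.012. Without 1 library the ratio of Jak1 over Jak3 differed by -0.12 to 0.0089 and that of Stat4 over Stat3 by -0.079 to 0.095. Of the pathway genes 2 were higher and 8 lower; weights gave 5 and 14, a minimum mean of 5 RPKM gave 0 higher, a pseudocount of 0.1 gave 1 higher, leaving out both libraries numbered 2 gave 0 higher, and leaving out 1 library gave 0 to 2 higher and 4 to 8 lower. Among them signs turned for Il2rg (-0.0097 with trimmed mean of M values, -0.016 to 0.044 without 1 library), Il6st (0.078 with weights, 0.091 without both libraries numbered 2, -0.10 to 0.097 without 1), Ifnar1 (-0.013 without both), Gadd45b (0.017 with the heat-shock covariate, -0.44 to 0.053 without 1), Bst2 (0.0050 with weights, -0.18 to 0.083 without 1), Mcl1 (-0.16 to 0.018), Pim2 (-0.035 to 0.14) and Ifit3 (-0.38 to 0.11). Over all genes 369 were called, 202 with a minimum mean of 5 RPKM, 1282 with weights, 817 with the covariate, 90 without both libraries numbered 2 and 134 to 298 without 1 library. The share of higher calls was 52.1% with trimmed mean of M values against 62.3%. The causes were not tested. The fewest reads stood behind Stat5a, 305 to 472 per kilobase.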
